A study of Mus musculus with 24 samples.

Results

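V(D)J recombination and the joining of the DNA ends it leaves were followed through 10 genes, chosen by name for their roles and not by their values: Rag1, Rag2, Dntt, Prkdc, Xrcc5, Xrcc6, Xrcc4, Lig4, Dclre1c and Nhej1. Of these, 9 had a probe set on the array that matches only that gene, out of 18193 genes with such a probe set. Dclre1c, which encodes the hairpin-opening nuclease Artemis, is not analysed here. The 9 genes were read by 14 probe sets, all of which passed the filter on low signals, and each gene is described by its brightest probe set over all 24 arrays.

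In developing lymphocytes the RAG1 and RAG2 proteins together cut DNA beside the V, D and J segments of the antigen receptor genes. The Ku heterodimer and the DNA-dependent protein kinase hold the broken ends, Artemis opens the hairpin-sealed ones, terminal transferase adds bases without a template, and XRCC4, DNA ligase IV and XLF seal the joint. In the thymus this machinery first rearranges T cell receptor genes in CD4 CD8 double-negative (DN) thymocytes.

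All mice carried the Scid mutation of Prkdc on both alleles, on what the labels call an outbred ICR background (by the study's methods the transgene came from a CD1 line and the mutation from CB17 ICR-Prkdc Scid/Scid mice), so every group lacked working DNA-PK and no group with intact Prkdc was analysed. The IgHμ-TLX1Tg Prkdc Scid/Scid mice (TLX1) also carried a TLX1 transgene under the IgHμ promoter, which is used mainly in B cells and is leaky in thymocytes, and the Prkdc Scid/Scid mice (control) carried none. Thymocytes of 4 TLX1 and 4 control pools, each of 2 to 5 mice of the same sex aged 6 to 8 weeks by the labels (the study's own account includes younger mice), were sorted into DN1 (CD44+ CD25-), DN2 (CD44+ CD25+) and DN3 (CD44- CD25+) cells. Females made up TLX1 pools 1 and 4 and control pools 2 and 4, and males the remaining 4. Each pool gave 1 array per stage and is the replicate. The values are MAS5 signals, linear intensities scaled so that the trimmed mean of every array is 150, and the median signal of an array was 15.1 to 24.3. The number of arrays, 4 pools a group, and the spread between pools limit the precision. The probe set for mouse Tlx1 was near background, with 4.51 to 11.4 in TLX1 and 2.75 to 17.3 in control arrays, and since the transgene need not match its probes it does not check the labels.

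Cd44 and Il2ra, which encodes CD25, followed the sort at DN1 and DN3. Cd44 had signals of 1268 to 1913 in TLX1 and 892 to 1805 in control DN1 arrays and of at most 29.0 at DN3. At DN2, gated as CD44+, it had only 85.25 to 119.5 in TLX1 and 80.27 to 153.3 in control arrays. Il2ra had at most 1171 at DN1 and at least 4270 at DN2 and DN3. Kit, listed with them, did not separate DN1 (246.7 to 429.6 in TLX1, 282.5 to 359.1 in control arrays) from DN2 (280.1 to 361.1 and 201.3 to 486.7). The summed signal of 6 T lineage markers was already 10160 to 15950 in TLX1 and 10160 to 16770 in control DN1 arrays. At DN3 it was 21050 to 25140 in TLX1 and 24780 to 31510 in control arrays. Markers of other cells were high at DN1: the summed signal of 6 myeloid markers was 10600 to 17540 in TLX1 and 6414 to 14140 in control DN1 arrays, and 626 to 1223 at DN2 and DN3 over both genotypes. The summed signal of 4 NK cell markers was 13180 to 19060 in TLX1 and 10350 to 23350 in control DN1 arrays, and still 3552 to 4508 in TLX1 and 4020 to 5189 in control DN3 arrays. Of these, Ncr1 and Klrk1 were near background at DN3, and Gzma (at least 2013) and Nkg7 (at least 1522) made up the rest. The sum of 7 B lineage markers was 382.2 to 563.8 in TLX1 and 227.3 to 538.3 in control DN1 arrays, and 887.4 to 1107 in TLX1 and 698.4 to 1185 in control DN3 arrays. Of these, Pax5, Ebf1 and Cd79a were near background at every stage, with at most 17.7 in TLX1 and 24.2 in control arrays, Blnk was highest at DN1, and Cd79b, Vpreb1 and Igll1 reached 433.8, 468.8 and 169.6 in TLX1 and 460.5, 498.8 and 206.1 in control arrays at DN3. What part the myeloid, NK cell and B lineage markers have in the stage differences below was not tested, and a smaller share of the cells that carry a transcript cannot be told apart from less of it per cell.

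The DN1 arrays of TLX1 pool 2 and control pool 3 stood apart from the other 6. Their Cd8a signals were 1789 and 1920, against 73.4 to 242.2 on the other DN1 arrays, and their Cd8b1 signals were 1766 and 1909, against 67.8 to 282.4. Their Cd4 signals were 99.4 and 104.9, against 4.70 to 15.5. CD4 and CD8 mark the thymocytes that a CD4 CD8 double-negative sort, as the labels describe it, leaves out. The same pools had Cd8a signals of 73.82 and 199 at DN2, where the other 6 arrays had at most 13.55. At DN3 they had 175.0 and 812.9, where the other 6 arrays had at most 17.5. In the study's list of pools these same pools have by far the largest shares of cells outside the DN1 to DN3 gates. Cd8a, Cd8b1 and Cd4 were picked with their values in view. Fold changes against DN1 are given with and without these pools. Calls between genotypes, and those at DN3 against DN2 from the fit of all stages, are also given both ways. The part of these pools in the remaining values was not tested.

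Rag1 encodes the DNA-cutting subunit of the RAG recombinase. Its signals in TLX1 pools 1 to 4 were 198.6, 3193, 46.9 and 127.1 in DN1 cells, 1268, 1412, 1158 and 1314 in DN2 cells, and 2718, 3154, 2170 and 3161 in DN3 cells. In control pools 1 to 4 they were 35.5, 75.2, 3769 and 125.8 in DN1 cells, 1075, 1320, 1541 and 1266 in DN2 cells, and 2609, 2825, 3425 and 2484 in DN3 cells. In 6 of 8 pools Rag1 was lowest at DN1, and in TLX1 pool 2 and control pool 3 the DN1 array was at the level of DN3. From DN2 to DN3 it was higher in 8 of 8 pools, by 0.91 to 1.28 log2 units, and no DN2 array reached the lowest DN3 array. Rag1 was higher at DN3 than at DN1 by a log2 fold change of 3.48 in TLX1 pools (standard error 0.99, adjusted p = 0.0112) and of 3.90 in control pools (standard error 0.99, adjusted p = 0.00562). Without the pools that stood apart these were 4.65 in TLX1 pools (standard error 0.39, adjusted p = 8.99e-06) and 5.24 in control pools (standard error 0.39, adjusted p = 3.44e-06).

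**Figure D1:**
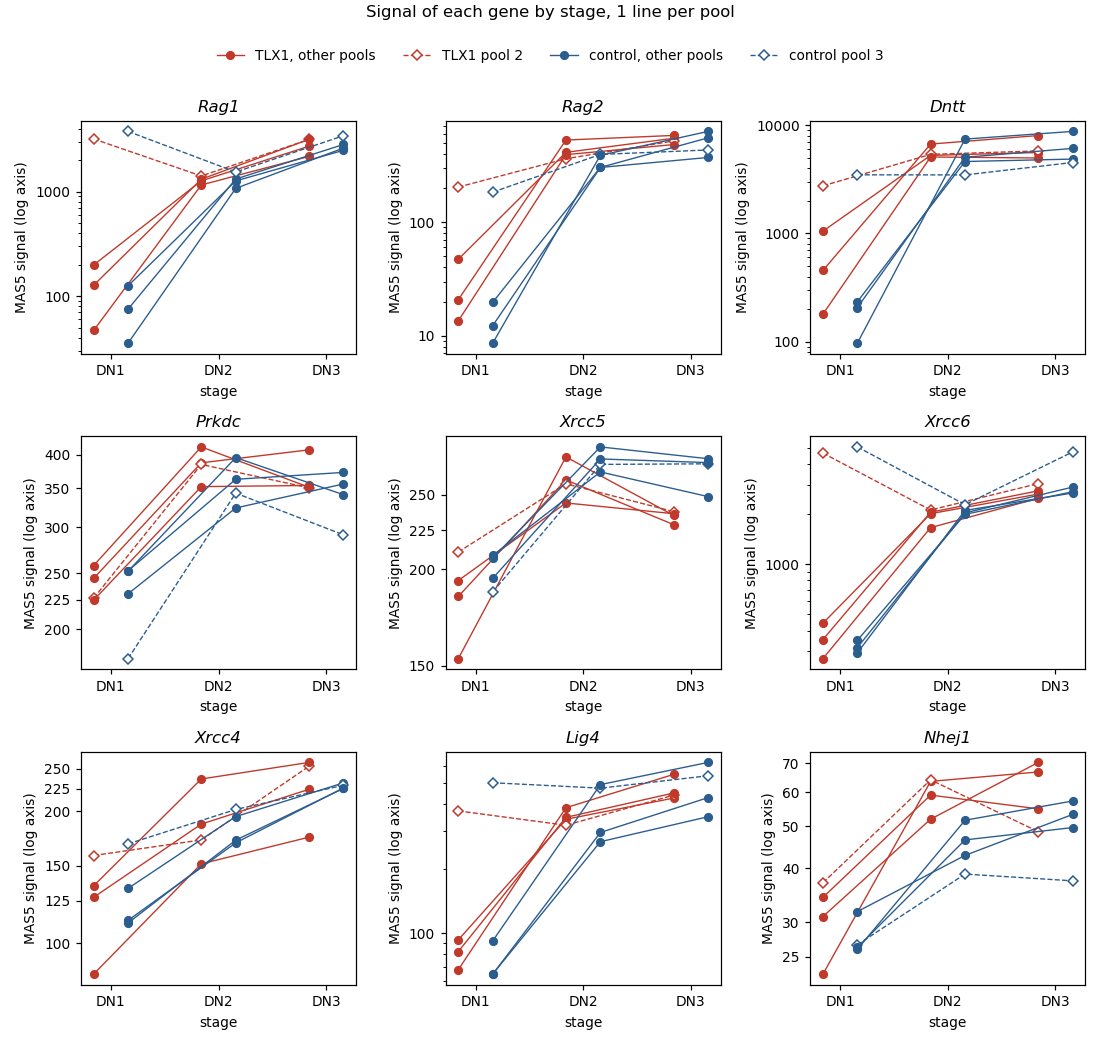
MAS5 signal (log axis) of the 9 genes at DN1, DN2 and DN3, with 1 line per pool, TLX1 (red) left of control (blue). Dashed lines with open diamonds are TLX1 pool 2 and control pool 3, whose DN1 signals of Rag1 (3193 and 3769) and Xrcc6 (4631 and 5043) lie far above those of the other 6 pools, while those of Prkdc and Xrcc5 do not.

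Rag2, whose product is the other essential subunit of the recombinase, is the neighbour of Rag1 in the genome. Its signals in TLX1 pools 1 to 4 were 47.1, 204.2, 13.5 and 20.8 in DN1 cells, 413.3, 362.9, 394.1 and 530.2 in DN2 cells, and 549.4, 520.5, 483.8 and 582.2 in DN3 cells. In control pools 1 to 4 they were 19.7, 12.3, 184.2 and 8.60 in DN1 cells, 304.3, 303.9, 396.0 and 388.7 in DN2 cells, and 554.4, 372.4, 433.5 and 631.9 in DN3 cells. Rag2 was lowest at DN1 in 8 of 8 pools, also in TLX1 pool 2 and control pool 3, where its DN1 signal was 39.2% and 42.5% of that at DN3. On the other 6 DN1 arrays it was at most 8.57% of the same pool's DN3 signal, and on 2 of the TLX1 and 3 of the control DN1 arrays it was not above the median signal of the array, here taken as background. Rag2 was called higher at DN3 than at DN1 in TLX1 pools (adjusted p = 0.000845) and in control pools (adjusted p = 0.000265). With signals not above the median of their array set to that median, the mean rise was at least 11.4-fold in TLX1 and at least 13-fold in control pools. This bounds the low signals and not the spread between pools. The smallest rise of a single pool was 1.35 log2 units in TLX1 and 1.23 in control pools. Without the pools that stood apart the mean rise was at least 18.8-fold in TLX1 (adjusted p of the fit = 7.35e-06) and at least 23-fold in control pools (adjusted p = 2.17e-06).

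Dntt encodes terminal transferase, the polymerase that adds untemplated bases at the joints. Its signals in TLX1 pools 1 to 4 were 1050, 2752, 179.8 and 455.2 in DN1 cells, 5258, 5374, 5084 and 6688 in DN2 cells, and 5592, 5784, 4976 and 8019 in DN3 cells. In control pools 1 to 4 they were 234.3, 207.0, 3479 and 97.1 in DN1 cells, 4616, 5054, 3472 and 7435 in DN2 cells, and 4862, 6102, 4521 and 8758 in DN3 cells. Dntt was near its DN3 level by DN2, where the pools stood at 76.8% to 102% of their own DN3 signal. Rag1 at DN2 stood at 41.2% to 53.3% of its DN3 signal in the 8 pools, and Rag2 at 54.9% to 91.3%. Dntt rose at DN3 against DN1 by a log2 fold change of 3.10 in TLX1 pools (standard error 0.84, adjusted p = 0.00791) and of 4.03 in control pools (standard error 0.84, adjusted p = 0.00134). Without the pools that stood apart these were 3.78 in TLX1 and 5.25 in control pools (standard error 0.50 each). Its other 2 probe sets gave log2 fold changes of 2.99 and 2.31 in TLX1 pools and of 3.69 and 2.91 in control pools, all called, and 3.69 and 2.87 in TLX1 and 4.70 and 3.76 in control pools without the pools that stood apart.

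Rag1, Rag2 and Dntt had the largest differences of DN2 and of DN3 from DN1 among the 9 genes, and the 250 bases before their start sites are shown for that reason (RefSeq, GRCm38.p6, gene strand, 5′ to 3′). Rag1 lies on the minus strand at chr2:101649533-101649782, Rag2 on the plus strand at chr2:101624462-101624711 and Dntt on the plus strand at chr19:41029025-41029274. Capitals mark matches, on either strand, to the E box CAGNTG, to the inverted or direct CCAAT box, to the RUNX core TGTGGT, to the GATA factor motif GATAA and to the ETS factor motif GGAAG.
Rag1: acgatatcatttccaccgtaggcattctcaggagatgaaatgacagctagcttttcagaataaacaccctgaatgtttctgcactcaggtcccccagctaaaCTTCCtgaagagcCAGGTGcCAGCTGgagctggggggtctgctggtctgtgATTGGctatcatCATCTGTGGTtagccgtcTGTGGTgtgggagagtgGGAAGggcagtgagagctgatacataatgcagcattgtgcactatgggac
Rag2: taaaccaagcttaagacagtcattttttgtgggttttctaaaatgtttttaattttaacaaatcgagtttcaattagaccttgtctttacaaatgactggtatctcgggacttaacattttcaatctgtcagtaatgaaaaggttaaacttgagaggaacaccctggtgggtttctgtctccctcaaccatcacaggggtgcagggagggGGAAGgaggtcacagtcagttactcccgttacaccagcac
Dntt: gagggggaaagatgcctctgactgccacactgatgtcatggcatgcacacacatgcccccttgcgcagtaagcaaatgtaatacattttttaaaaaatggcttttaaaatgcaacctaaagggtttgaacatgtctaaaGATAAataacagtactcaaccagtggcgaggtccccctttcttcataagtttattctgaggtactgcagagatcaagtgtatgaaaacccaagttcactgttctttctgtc
The Rag1 window holds 3 matches to CAGNTG, 1 to CCAAT, 2 to TGTGGT and 2 to GGAAG, and its E box nearest the start site overlaps a TGTGGT. The Rag2 window holds 1 match to GGAAG and the Dntt window 1 to GATAA, and neither holds any of the other motifs. Of all 32851 windows of this length in the RefSeq table, 44.8% hold CAGNTG, 33.8% CCAAT, 14.0% TGTGGT, 22.6% GATAA and 64.1% GGAAG. A match is a description of the letters and not of binding.

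Prkdc encodes the catalytic subunit of DNA-PK, and its transcript was measured in all arrays although all mice carry the Scid allele. Its signals in TLX1 pools 1 to 4 were 244.8, 226.3, 257.6 and 224.5 in DN1 cells, 387.6, 385.1, 412.9 and 352.6 in DN2 cells, and 408.1, 350.9, 351.8 and 354.2 in DN3 cells. In control pools 1 to 4 they were 252.3, 251.9, 177.9 and 230.2 in DN1 cells, 363.0, 395.7, 343.6 and 323.9 in DN2 cells, and 373.1, 341.5, 291.1 and 356.3 in DN3 cells. No DN1 array reached the lowest DN2 or DN3 array, and the DN1 arrays of TLX1 pool 2 and control pool 3 did not stand above the others. At DN2 against DN1, Prkdc rose 1.61-fold in TLX1 pools (log2 fold change 0.69, standard error 0.092, adjusted p = 3.58e-05) and 1.57-fold in control pools (0.66, standard error 0.092, adjusted p = 5.91e-05). Leaving out the pools that stood apart gave log2 values of 0.67 in TLX1 and 0.56 in control pools.

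Xrcc5 and Xrcc6 encode Ku80 and Ku70, the subunits of the ring that loads onto broken ends, and their probe sets differed widely in how much they changed. Xrcc5 had signals of 153.2 to 210.7 in TLX1 and 187.0 to 208.6 in control pools at DN1, of 244.0 to 280.0 in TLX1 and 267.7 to 288.5 in control pools at DN2, and of 228.7 to 237.8 in TLX1 and 248.7 to 278.5 in control pools at DN3. It was higher at DN2 than at DN1 in 8 of 8 pools, rising by a log2 fold change of 0.50 in TLX1 and 0.48 in control pools (standard error 0.094 each, adjusted p = 0.000608 and 0.000948), and by 0.57 in TLX1 and 0.45 in control pools without the pools that stood apart, both called.

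Xrcc6 had signals in TLX1 pools 1 to 4 of 443.0, 4631, 353.4 and 271.6 in DN1 cells, 2007, 2112, 2047 and 1656 in DN2 cells, and 2631, 3039, 2751 and 2481 in DN3 cells. In control pools 1 to 4 they were 349.8, 294.4, 5043 and 316.4 in DN1 cells, 1989, 2099, 2273 and 2029 in DN2 cells, and 2717, 2670, 4706 and 2897 in DN3 cells. As with Rag1, the arrays of TLX1 pool 2 and control pool 3 were the highest at DN1, at 152% and 107% of their own DN3 signals, where the other 6 pools stood at 10.9% to 16.8%. Control pool 3 was also the highest Xrcc6 array at DN3. Xrcc6 rose at DN3 against DN1 by a log2 fold change of 2.03 in TLX1 pools (standard error 0.68, adjusted p = 0.0253) and of 2.31 in control pools (standard error 0.68, adjusted p = 0.0128). Without the pools that stood apart these were 2.91 in TLX1 (adjusted p = 1.57e-07) and 3.11 in control pools (adjusted p = 8.86e-08), with a standard error of 0.12. A dimmer Xrcc6 probe set, with a mean signal of 67.8, gave 1.34 in TLX1 pools (adjusted p = 0.0547) and 2.12 in control pools (adjusted p = 0.00478), and without the pools that stood apart 1.83 in TLX1 (adjusted p = 0.000388) and 2.78 in control pools (adjusted p = 2.16e-05).

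Xrcc4, Lig4 and Nhej1 encode the ligation factors XRCC4, DNA ligase IV and XLF. Lig4 had signals in TLX1 pools 1 to 4 of 93.3, 370.5, 82.4 and 67.8 in DN1 cells, 338.8, 317.9, 345.8 and 383.4 in DN2 cells, and 424.9, 438.2, 448.5 and 547.3 in DN3 cells. In control pools 1 to 4 they were 64.7, 64.8, 500.6 and 92.3 in DN1 cells, 294.2, 266.6, 472.6 and 490.8 in DN2 cells, and 427.0, 348.1, 539.5 and 622.1 in DN3 cells. Again TLX1 pool 2 and control pool 3 were the highest at DN1, at 84.6% and 92.8% of their DN3 signals, against 12.4% to 22.0% in the other pools. At DN3 against DN1, Lig4 rose by a log2 fold change of 1.97 in TLX1 pools (adjusted p = 0.00316) and of 2.00 in control pools (adjusted p = 0.00286), with a standard error of 0.46, and without the pools that stood apart the values were 2.55 in TLX1 and 2.63 in control pools.

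Xrcc4 and Nhej1 changed less. Xrcc4 had signals of 85.0 to 158.4 in TLX1 and 111.2 to 168.4 in control pools at DN1, of 151.6 to 236.7 in TLX1 and 169.3 to 201.7 in control pools at DN2, and of 174.4 to 258.2 in TLX1 and 225.2 to 231.9 in control pools at DN3. It was higher at each later stage in 8 of 8 pools, and at DN3 against DN1 it rose 1.82-fold in TLX1 pools (adjusted p = 4.21e-05) and 1.76-fold in control pools (adjusted p = 6.94e-05). Its other probe set gave log2 fold changes of 0.75 in TLX1 and 0.80 in control pools, both called. With the pools that stood apart left out, the main probe set gave log2 fold changes of 0.93 in TLX1 and 0.94 in control pools and the other 0.87 in both. Nhej1, the dimmest of the 9, had signals of 22.8 to 37.0 in TLX1 and 26.0 to 31.8 in control pools at DN1, and of 48.6 to 70.3 in TLX1 and 37.4 to 57.2 in control pools at DN3. Its main probe set rose 1.93-fold in TLX1 pools (adjusted p = 0.000363) and 1.77-fold in control pools (adjusted p = 0.00113) at DN3 against DN1, and by log2 fold changes of 1.14 in TLX1 and 0.94 in control pools without the pools that stood apart. A second Nhej1 probe set, with a mean signal of 14.1, correlated with it at only r = 0.133 over the 24 arrays and was not called (log2 fold change 0.26 in TLX1 and 0.54 in control pools, and -0.005 in TLX1 and 0.70 in control pools without the pools that stood apart).

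**Figure D2:**
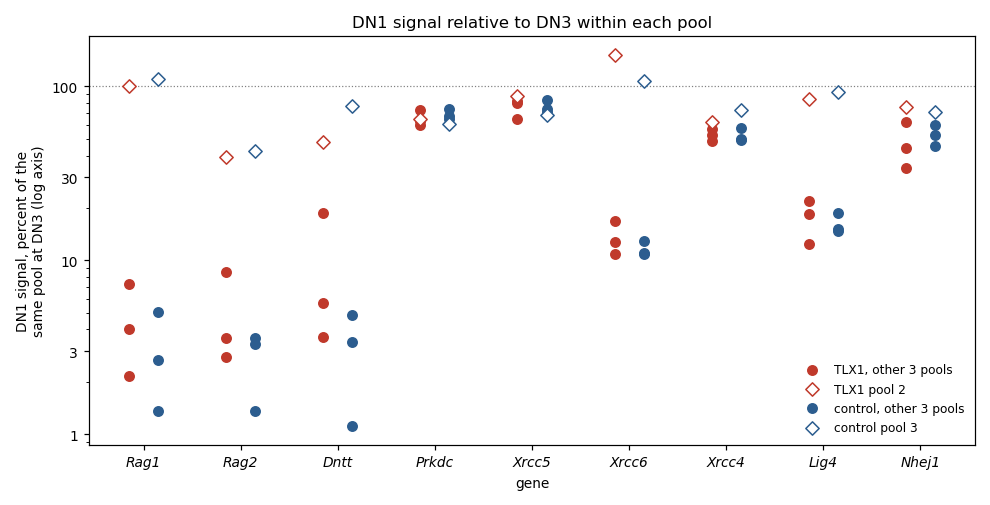
DN1 signal as a percent of the same pool's DN3 signal (log axis) for each of the 9 genes, TLX1 pools (red) left of control pools (blue), with open diamonds for TLX1 pool 2 and control pool 3. These diamonds lie at 101% and 110% for Rag1 and at 152% and 107% for Xrcc6, against at most 16.8% in the other pools, while for Prkdc they lie at 64.5% and 61.1%, within the range of the others, whose highest is 73.8%.

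The stage comparisons ask where along early T cell development the machinery is transcribed. They were made with limma on the 24 arrays together, each pool as a block, and a call is an adjusted p under 0.05 over all 27022 probe sets. The spread is estimated once over all stages. Standard errors against DN1 can then be too small for genes whose DN1 pools spread most. Within pools, Rag1 at DN3 minus DN1 ran from -0.02 to 5.53 log2 units in TLX1 and from -0.14 to 6.20 in control pools. For Xrcc6 this ran from -0.61 to 3.19 in TLX1 and from -0.10 to 3.20 in control pools. At DN3 against DN1, 9 of 9 genes rose in TLX1 pools and 9 of 9 in control pools. Of all probe sets, 42.4% were called in TLX1 pools (23.2% higher) and 42.6% in control pools (22.4% higher). The median log2 fold change of the 9 genes was 1.97 in TLX1 and 2.00 in control pools, and that of all probe sets 0.060 and 0.023. With Rag2 at its bound the medians of the 9 genes are the same. All 9 also rose without the pools that stood apart, in both genotypes, where 46.3% of all probe sets were called in TLX1 (25.4% higher) and 48.1% in control pools (25.8% higher). At DN2 against DN1, 7 of 9 rose in TLX1 pools and 8 of 9 in control pools, where 47.9% and 44.7% of all probe sets were called (22.8% and 21.9% higher). Those not called were Rag1 in TLX1 pools (log2 fold change 2.37, adjusted p = 0.063) and Xrcc6 in TLX1 pools (1.55, adjusted p = 0.073) and in control pools (1.72, adjusted p = 0.0513). Without TLX1 pool 2 and control pool 3, 9 of 9 were called in both genotypes, where 50.6% of all probe sets were called in TLX1 (25% higher) and 50.4% in control pools (25.7% higher), with Rag1 at 3.56 in TLX1 pools (adjusted p = 4.85e-05) and Xrcc6 at 2.44 in TLX1 (adjusted p = 5.01e-07) and 2.67 in control pools (adjusted p = 2.6e-07).

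Several of these calls were lost when 1 pool other than those that stood apart was left out, while the differences stayed above 0. At DN3 against DN1 the call of Rag1 in TLX1 pools was lost without TLX1 pool 1, 3 or 4 (log2 fold change 3.38, 2.80 and 3.10, adjusted p = 0.0527, 0.0809 and 0.0692), and in control pools without control pool 1 (3.13, adjusted p = 0.052). That of Xrcc6 was lost without TLX1 pool 1, 3 or 4 (1.85, 1.72 and 1.64) and without control pool 1, 2 or 4 (2.09, 2.02 and 2.01), and that of Dntt in TLX1 pools without pool 3 or 4 (2.54 and 2.76). At DN2 against DN1 the call of Lig4 was lost without TLX1 pool 1, 3 or 4 (1.45, 1.38 and 1.24) and without control pool 1, 2 or 4 (1.46, 1.5 and 1.38), that of Dntt in TLX1 pools without pool 3 or 4 (2.39 and 2.70), and that of Rag1 in control pools without TLX1 pool 1 (2.77) or control pool 1, 2 or 4 (2.06, 2.32 and 2.59). For Rag1 and Xrcc6 the uncalled DN2 differences above were called without TLX1 pool 2 or without control pool 3 alone. The calls of Rag2, Prkdc, Xrcc5, Xrcc4 and Nhej1 at these stages did not change with any pool left out.

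**Figure D3:**
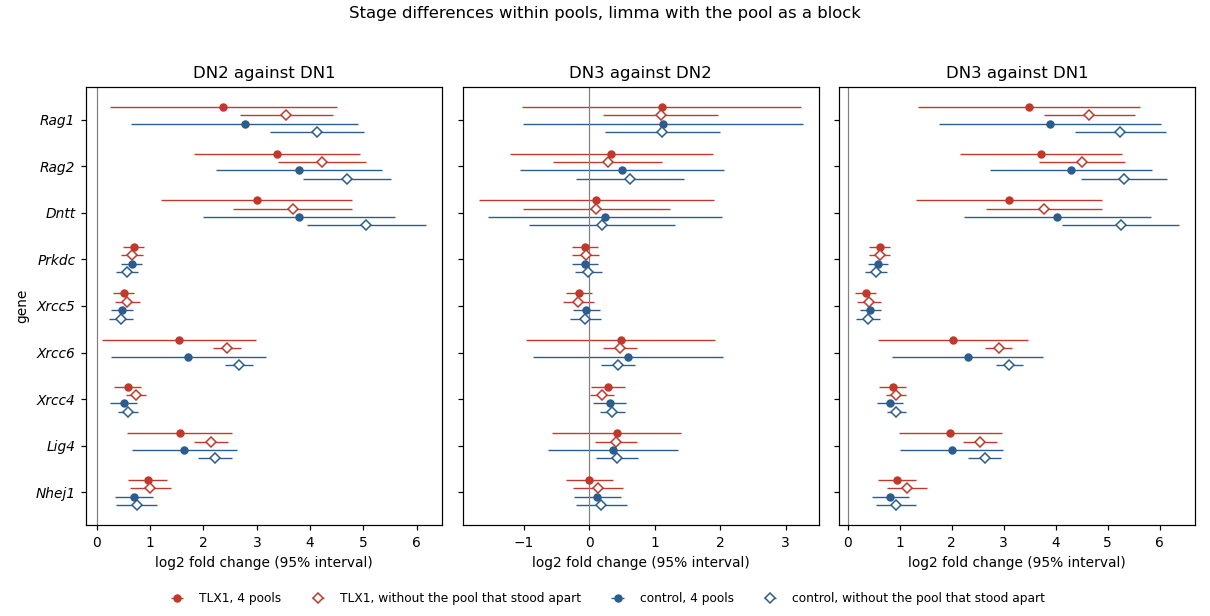
Log2 fold changes between stages with their 95% intervals (x axes) for the 9 genes (y axis), TLX1 (red) above control (blue), filled circles for all 4 pools and open diamonds without the pool that stood apart. At DN3 against DN1 every interval lies above 0, and that of Rag1 in TLX1 pools runs from 1.35 to 5.61 with all pools. At DN3 against DN2 the intervals of the filled circles cover 0, except for Xrcc4. Those of the open diamonds lie above 0 for Rag1, Xrcc6, Xrcc4 and Lig4 in both genotypes, and none of these was called.

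At DN3 against DN2 the same fit called 0 of 9 genes in TLX1 and 0 of 9 in control pools, with 1 of 9 in each at an unadjusted p under 0.05 (Xrcc4). Of all probe sets, 3.04% were called in TLX1 (1.85% higher) and 1.27% in control pools (0.485% higher), and 20.6% and 13.8% had an unadjusted p under 0.05. This fit shares 1 estimate of the spread over all stages, and for Rag1 the standard deviation of the log2 signal was 2.61 in TLX1 DN1 pools but 0.12 and 0.26 at DN2 and DN3. Fitted on the DN2 and DN3 arrays alone, a setting chosen after that spread was seen, 3 of 9 genes rose in both genotypes, Rag1, Xrcc6 and Lig4, where 9.42% of all probe sets were called in TLX1 and 3.93% in control pools (5.93% and 2.22% higher). Rag1 then rose 2.16-fold in TLX1 pools (log2 fold change 1.11, standard error 0.086, adjusted p = 0.00145) and 2.18-fold in control pools (1.13, standard error 0.086, adjusted p = 0.00131). Xrcc6 rose 1.4-fold in TLX1 pools (adjusted p = 0.0432) and 1.51-fold in control pools (adjusted p = 0.0389), and Lig4 rose 1.34-fold in TLX1 pools (adjusted p = 0.0224) and 1.29-fold in control pools (adjusted p = 0.048). Rag2 and Xrcc4 were also higher at DN3 than at DN2 in 8 of 8 pools but were not called (adjusted p = 0.135 and 0.0833 in TLX1, 0.0829 and 0.101 in control pools). Dntt, Prkdc, Xrcc5 and Nhej1 had log2 fold changes between -0.15 and 0.24. The fit on the DN2 and DN3 arrays alone kept the pools that stood apart. Without them, the fit of all stages called none of the 9 genes at DN3 against DN2 in either genotype. There 3.25% of all probe sets were called in TLX1 and 3.75% in control pools. Rag1 was then at 1.09 in TLX1 and 1.12 in control pools (adjusted p = 0.145 and 0.142). Xrcc6 was at 0.47 and 0.44 (adjusted p = 0.0613 and 0.0703) and Lig4 at 0.405 and 0.42 (0.142 and 0.133).

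The comparison of TLX1 with control asks whether the transgene moved this machinery before disease. At no stage did it change any of the 9 genes by the test: 0 of 9 were called at DN1, DN2 and DN3, where 0.0037%, 0.0037% and 0.0185% of all probe sets were called. At an unadjusted p under 0.05 there were 0, 1 and 0 of 9, against 1.72%, 3.53% and 6.02% of all probe sets. The methods' unpaired test called 0 of 9 at each stage after adjustment, and 0 of 9 at the methods' thresholds of p and fold, which 1.01%, 1.46% and 3.04% of all probe sets passed at DN1, DN2 and DN3. Before adjustment that test gave a p under 0.05 for Nhej1 at DN2 and for Xrcc5 at DN3, both short of the fold threshold. At each stage 0 of 9 were also called without the pools that stood apart, and 0.0037%, 0.0148% and 0.0185% of all probe sets. At DN2 and DN3 the 95% intervals of the 9 log2 fold changes lay between -0.68 and 0.74, and for Rag1 they were -0.35 to 0.33 at DN2 and -0.42 to 0.38 at DN3. At DN1 they were too wide to limit Rag1 (-3.40 to 4.19), Rag2 (-1.83 to 3.24), Dntt (-1.75 to 3.68), Xrcc6 (-2.58 to 2.71) or Lig4 (-1.75 to 1.75).

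**Figure D4:**
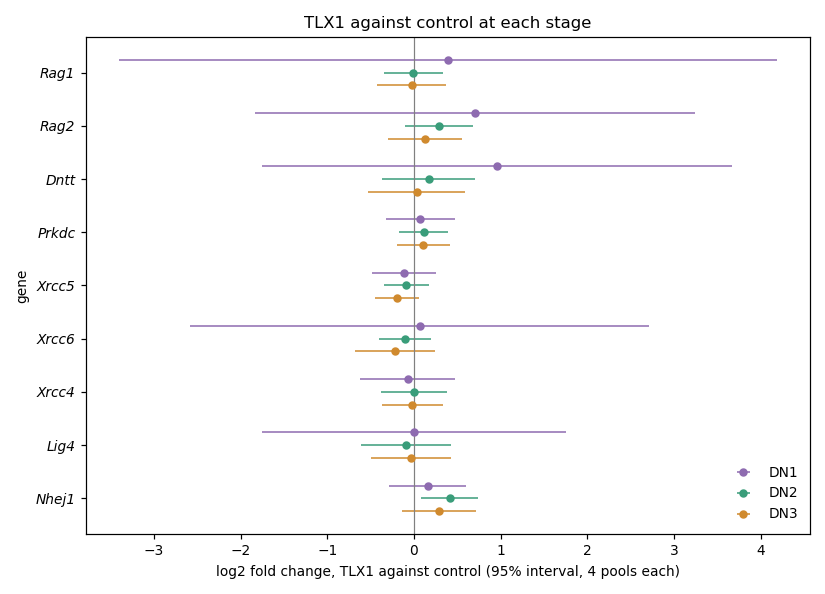
Log2 fold change of TLX1 against control (x axis, with 95% interval, 4 pools each) for the 9 genes (y axis) at DN1, DN2 and DN3. Only the interval of Nhej1 at DN2 (0.084 to 0.74) leaves out 0, and at DN1 those of Rag1, Rag2, Dntt, Xrcc6 and Lig4 are several times wider than at the later stages.

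At DN1 the main probe set of Dntt had the largest difference of the 9, 1050, 2752, 179.8 and 455.2 in TLX1 pools against 234.3, 207.0, 3479 and 97.1 in control pools (log2 fold change 0.96, standard error 1.19, adjusted p = 1). Without TLX1 pool 2 and control pool 3 it was 1.4 (standard error 0.68, adjusted p = 1), and Rag2 was at 0.89 (standard error 0.52) and Rag1 at 0.61 (standard error 0.66), neither called. The value of Rag2 rests in part on signals not above the median of their array. The other 2 Dntt probe sets gave 0.46 and 0.28 at DN1 with all pools. Without TLX1 pool 2 and control pool 3 they gave 0.73 and 0.56 there, against 1.4 for the main one. At DN2, with all pools, they were lower, at -0.20 and -0.50 (unadjusted p = 0.176 and 0.0572), where the main one was at 0.17. At DN3 they gave -0.24 and -0.32 against 0.034, and none of these was called (adjusted p of 0.926 to 1).

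TLX1 and control pools did not overlap in 2 of the 27 combinations of a gene and a stage. Nhej1 at DN2 had 63.5, 64.1, 59.1 and 52.0 in TLX1 pools against 51.7, 42.9, 38.8 and 46.5 in control pools (log2 fold change 0.41, standard error 0.14, adjusted p = 1), so the lowest TLX1 pool lay just above the highest control pool. Its second probe set had the opposite sign (-0.27, standard error 0.36). Xrcc5 at DN3 had 228.7, 237.8, 236.3 and 235.1 in TLX1 pools against 278.5, 248.7, 274.3 and 275.3 in control pools (log2 fold change -0.20, standard error 0.11, adjusted p = 0.91). Such separation was seen in 1.25% of all probe sets at DN1, 2.75% at DN2 and 3.89% at DN3. The 3'/5' index, a measure of RNA quality, is how far the 3' signals of Actb and Gapdh exceed the 5' ones in log2 units, averaged over both genes. At DN1 this index averaged 0.057 ± 0.075 in TLX1 and 0.26 ± 0.16 in control pools (SD, n = 4, exact permutation test, two-sided, p = 0.0857). At DN2 it averaged 0.22 ± 0.11 in TLX1 and 0.52 ± 0.33 in control pools (SD, n = 4, exact permutation test, two-sided, p = 0.0571). At DN3 it was 0.18 ± 0.11 in TLX1 and 0.53 ± 0.030 in control pools (SD, n = 4, exact permutation test, p = 0.0286, the smallest that 4 against 4 allows). The part of this index in these separations, and in the other comparisons of TLX1 with control, was not tested.

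The stage differences themselves were compared between genotypes as an interaction. It called 0 of 9 genes, and 0% of all probe sets, for DN2 against DN1, DN3 against DN2 and DN3 against DN1, and 0 of 9 had an unadjusted p under 0.05, against 3.6%, 2.89% and 3.23% of all probe sets. It also called 0 of 9 without the pools that stood apart, with 0%, 0.0037% and 0% of all probe sets.

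Other end joining and break response genes were counted from a list of 25, of which 22 could be tested. At DN2 against DN1, 15 rose and 2 fell in TLX1 pools and 13 rose and 2 fell in control pools. Of all probe sets, 22.8% and 21.9% were called higher there and 25.1% and 22.8% lower. At DN3 against DN1, 12 rose and 2 fell in TLX1 pools and 10 rose and 1 fell in control pools. Of all probe sets, 23.2% and 22.4% were higher there and 19.2% and 20.3% lower. At DN3 against DN2, 0 of 22 were called, where 3.04% of all probe sets were called in TLX1 and 1.27% in control pools. Between genotypes 0 of 22 were called at DN1, DN2 and DN3, where 0.0037%, 0.0037% and 0.0185% of all probe sets were. Of the 10 genes of break sensing and signalling, 8 rose at DN2 in both genotypes: Atm and Rnf168, a kinase and a ubiquitin ligase of the break response, Mre11a, Rad50 and Nbn, which form the end-binding MRN complex, and Rnf8, Trp53bp1 and Rif1. Of the 5 tested genes of alternative end joining, 5 rose in TLX1 and 4 in control pools at DN2. With TLX1 pool 2 and control pool 3 left out, 16 rose and 2 fell in both genotypes at DN2. Of all probe sets, 25% were then higher and 25.6% lower in TLX1, and 25.7% higher and 24.7% lower in control pools. At DN3 against DN1, 16 rose and 2 fell in TLX1 pools and 12 rose and 2 fell in control pools. The shares of all probe sets were 25.4% and 25.8% higher and 20.9% and 22.3% lower. The genes that fell at DN3 were Polm and Paxx in both genotypes. Lig1, a replicative ligase, was then also called lower at DN3 than at DN2 in TLX1 (log2 fold change -0.63) and in control pools (-0.70). There 3.25% of all probe sets were called in TLX1 and 3.75% in control pools. The largest rises called in both genotypes at DN3 against DN1 were of Lig3, the ligase of alternative end joining (log2 fold change 0.77 in TLX1 and 0.78 in control pools), and Aplf, an end joining scaffold (0.80 in TLX1 and 0.62 in control pools). The same values without the pools that stood apart were 0.75 in TLX1 and 0.89 in control pools for Lig3 and 0.83 in TLX1 and 0.71 in control pools for Aplf.

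Polm, a template-flexible polymerase of the same family as terminal transferase, was the only listed gene called lower in both genotypes at DN3 with all pools. Its signals in TLX1 pools 1 to 4 were 137.6, 104.5, 153.6 and 109.0 at DN1 and 13.0, 24.2, 36.6 and 6.27 at DN3, and in control pools 147.9, 135.6, 89.9 and 141.8 at DN1 and 10.4, 11.5, 20.8 and 7.01 at DN3. It fell in TLX1 pools (adjusted p = 0.000315) and in control pools (adjusted p = 7.48e-05), the opposite course to that of Dntt. On 2 TLX1 and 3 control DN3 arrays its signal was not above the median of the array. With those set to the median, Polm was on average at least 5.31-fold lower in TLX1 and at least 6.45-fold lower in control pools. Without the pools that stood apart these mean bounds were 5.68-fold and 7.37-fold. TLX1 pool 2 and control pool 3 had the lowest DN1 signals of their genotypes.

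The 9 genes fell into different courses over the arrays. Over 24 arrays, which share 8 pools and 3 stages, Rag2 and Dntt had the most alike log2 signals (Pearson r = 0.984), and Rag1 was most like Xrcc6 (0.966) and Lig4 (0.958), while Prkdc correlated with Rag1 at 0.463 and with Nhej1 at 0.871. These are descriptions, and the DN1 arrays of TLX1 pool 2 and control pool 3 weigh on them. Among all other genes, those most like Rag1 were Tmem151b (0.973), Slc16a5 (0.973), Fam183b (0.97), Ly6d (0.967) and Akap2 (0.967). Ly6d, a surface protein of early lymphocytes, had signals of 4742 in TLX1 pool 2 and 4326 in control pool 3 at DN1, against 117.5 to 251.8 on the other 6 DN1 arrays, as Rag1 did. Those most like Rag2 were Dntt, Sox4 (0.984), which encodes a transcription factor of lymphoid progenitors, Maoa (0.983), Arpp21 (0.983) and Fkbp5 (0.983), and those most like Dntt were Rag2, Arpp21 (0.982), Arhgap19 (0.980), Maoa (0.980) and Sox4 (0.978).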

How the data were processed

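RNA of sorted DN1, DN2 and DN3 thymocytes was measured on 24 Affymetrix mouse arrays. The authors deposited MAS5 signal intensity values on a linear scale, made in Expression Console according to the submitters' processing notes (2% trimmed mean of 150 on every array, checked on the values). Signals under 1 were set to 1 and log2 transformed with no further scaling, and the 60% of 45037 probe sets (control probe sets left out) with the highest mean log2 signal were kept, 27022 with a geometric mean of at least 9.02. The background steps and detection flags of the study's methods are not analysed here.

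Gene names came from the platform annotation (34945 probe sets match 1 gene, 932 several and 9160 none), and the probe set brightest over all arrays stands for a gene. Genotypes were compared with limma 3.58.1 (R 4.3.3) on the 8 arrays of a stage, and stages and the interaction on the 24 arrays together, each pool being a fixed block. P-values were adjusted by Benjamini-Hochberg across all kept probe sets. The labels do not say whether pools shared cages or days. The p-values cover the spread between pools treated as independent, and a batch shared by some pools cannot be told apart. Arrays of the same pool across stages were paired by their labels. The fits were tested on simulated data. A gene with signals not above the median of their array was given a bound, from the mean log2 difference with those signals set to that median. Such a bound does not cover the spread between pools. Python 3.11.15 was used for the rest.

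The genes and lists were chosen with earlier results of these data known. Named genes were all members, the listed genes that rose or fell most (at most 2 each, called in both genotypes) and the 5 genes most like Rag1, Rag2 and Dntt. Cell markers outside the lists were named after their values were seen. The alternatives were quantile normalization, no filter, an offset of 32, the median of a gene's probe sets, each pool left out, the replicate number as a block, random blocks, sex as a covariate, no block, and the methods' unpaired test.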

Additional observations from a re-analysis of the deposited data

Results flagged for a closer look

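In 5 of 54 groups of 4 pools, 1 pool lay far from the other 3 (log2 signals). Chance flags about 1 in 20 such groups. Xrcc6 in control DN1 was at 12.30 in pool 3, against 8.20 to 8.45 in the other pools, and in control DN3 it was at 12.20 in the same pool, against 11.38 to 11.50. Prkdc in TLX1 DN3 was at 8.67 in pool 1, against 8.45 to 8.47. Xrcc5 in control DN3 was at 7.96 in pool 2, against 8.10 to 8.12. Nhej1 in control DN1 was at 4.99 in pool 2, against 4.70 to 4.74.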

How the results depend on the processing

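The counts of the 9 genes called stayed within 1.5 times of those reported in every comparison under every alternative that was run, except for DN3 against DN2, where the DN2 and DN3 arrays alone gave 3 of 9 in TLX1 and 3 of 9 in control pools in place of 0. No value of a gene between genotypes was called under any alternative (444 values). With the replicate number as a block, 0 of 9 were called at each stage, as without it (Rag1 0.39 at DN1), and the numbers were not taken as pairs: same-numbered pools 1 and 4 correlated at 0.127 to 0.482 at the 3 stages, but pools 2 and 3 at -0.345 to 0.036. The call of Nhej1 at DN2 against DN1 in TLX1 pools was lost with the median of its probe sets (0.32, adjusted p = 0.121), and that of Rag1 in control pools without the filter (2.77, adjusted p = 0.0611) or the block (2.77, adjusted p = 0.0564). In these cases the cause was not tested. Leaving out the pools that stood apart changes the number of arrays as well as their spread.

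Some log2 fold changes near 0 that were never called changed sign. Without TLX1 pool 2 and control pool 3, TLX1 against control was -0.073 for Dntt at DN3, 0.14, 0.074 and 0.058 for Lig4 at DN1, DN2 and DN3, -0.016 for Prkdc at DN1, and 0.034 and 0.009 for Rag1 at DN2 and DN3. With quantile normalization it was 0.006 and 0.089 for Rag1 at DN2 and DN3 and -0.026 for Xrcc4 at DN2, and Nhej1 at DN3 against DN2 in TLX1 pools was -0.16. With the median of its probe sets Xrcc4 at DN2 was -0.022. With each pool left out in turn, TLX1 against control at DN1 ran from -0.83 to 1.84 for Rag1, from -0.074 to 1.67 for Rag2, from -0.040 to 0.13 for Prkdc, from -0.87 to 1.06 for Xrcc6, from -0.19 to 0.11 for Xrcc4 and from -0.55 to 0.69 for Lig4. At DN2 it ran from -0.094 to 0.079 for Rag1, from -0.002 to 0.36 for Dntt, from -0.12 to 0.098 for Xrcc4 and from -0.24 to 0.052 for Lig4. At DN3 it ran from -0.087 to 0.094 for Rag1, from -0.002 to 0.25 for Rag2, from -0.11 to 0.23 for Dntt, from -0.087 to 0.10 for Xrcc4 and from -0.18 to 0.10 for Lig4. Nhej1 at DN3 against DN2 in TLX1 pools ran from -0.14 to 0.13.

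Counts over all probe sets moved more. At DN3 against DN2, 821 were called in TLX1 and 344 in control pools, against 2545 and 1062 with the DN2 and DN3 arrays alone, 313 and 170 without the filter, 163 and 140 without the block, 535 in TLX1 pools with quantile normalization, 1014 in control pools without the pools that stood apart, and 181 to 1683 in TLX1 and 74 to 627 in control pools with a pool left out. Between genotypes, 1, 1 and 5 were called at DN1, DN2 and DN3, and 0 to 11 under the alternatives (11 without the filter at DN2), and the interactions called 0, or 1 under some settings.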
